A study of Rattus norvegicus with 20 samples.

Results

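The genes described here encode the synaptic vesicle and SNARE machinery, in the nucleus accumbens shell of P rats, which were selected over generations to prefer alcohol. A member is any gene whose symbol is Syt, Stx, Stxbp, Vamp, Rims or Cplx followed by a number, or Unc13 followed by a letter. Snap25, Snap29, Syn1, Syn2, Syn3, Sv2a, Sv2b, Sv2c, Syp, Nsf and Rab3a were added by name. The rule found 60 of the 14217 genes named by probe sets of a single gene, with 91 probe sets among them, and where a gene had several, the brightest on average over the 20 arrays stood for it. The list was drawn from gene names and not from measured values.

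The study set P rats with access to 15 and 30% ethanol in adolescence against P rats given water only, and measured accumbens shell RNA of 10 ethanol rats and 10 water rats on Affymetrix arrays, 1 array an animal. Both groups are of the same selected line, so neither represents an outbred rat, and the labels used here give no sex, exact age, amount drunk or time since the last drink. Animals keep the numbers of the labels, 1 to 10 for ethanol and 12 to 21 for water. All values are log2 values by RMA, so that a difference of 1 is a doubling, and each difference is ethanol minus water.

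A synaptic vesicle fuses when its SNARE proteins, synaptobrevins of the VAMP family, zip together with syntaxin and SNAP-25 of the plasma membrane into a tight helical bundle. Munc13 and RIM proteins prepare the vesicle at the active zone, complexins act on the assembling bundle, and synaptotagmin couples fusion to the entry of calcium. The ATPase NSF then pulls the bundle apart for another round, and related SNAREs serve the traffic between endosomes, lysosomes, the Golgi apparatus and the endoplasmic reticulum. In the accumbens shell, dopamine, glutamate and GABA are released through this machinery, but much of the RNA in the tissue comes from its own medium spiny neurons, since the cell bodies of the dopamine and glutamate inputs lie elsewhere.

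None of the 50 members above the filter on dim probe sets differed between ethanol and water rats after adjustment (limma with Benjamini-Hochberg adjustment over 20695 probe sets, threshold 0.05). The share of all 10746 genes tested that passed was 0.0931%, or 10 genes, with 0.0838% higher and 0.00931% lower in ethanol rats. At an unadjusted p under 0.05 there were 4 members, against 10% of all genes, so the members' share of 8% lay near the background. All 4 (Unc13a, Vamp7, Syt7 and Stx3) were higher in ethanol rats and 0 were lower, against 5.24% of all genes higher and 4.77% lower. The count of 4 varied with single rats left out. It was 2 without water animal 12 (4%, against 10.6% of all genes) and 7 without water animal 15 (14%, against 11.5%). Without water animal 16 it was 8 (16%, against 11.6%). Among the 50 members 25 differences were positive and 25 negative, and their median was 0.0017, beside 0.00016 for all genes. The median size of a difference, whatever its sign, was 0.048 for the members and 0.051 for all genes. The 95% interval of 36 of the 50 members (72%, against 76.5% of all genes) lay wholly between -0.25 and 0.25, so for these genes the data bound the difference in the group means. In bulk tissue, fewer cells of a type and less RNA per cell cannot be told apart.

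The other 10 members were below the filter, which left out the third of probe sets with the lowest mean over the 20 arrays (a mean under 6.65). They are Unc13b, Unc13d, Syt9, Syn3, Stx17, Syt13, Rims3, Syt2, Cplx3 and Stx11, with means from 4.92 to 6.48. Just below the filter stood Unc13d at 6.37 and Unc13b at 6.48, and just above it Syt8 at 6.69 and Unc13a at 6.82.

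**Figure D1:**
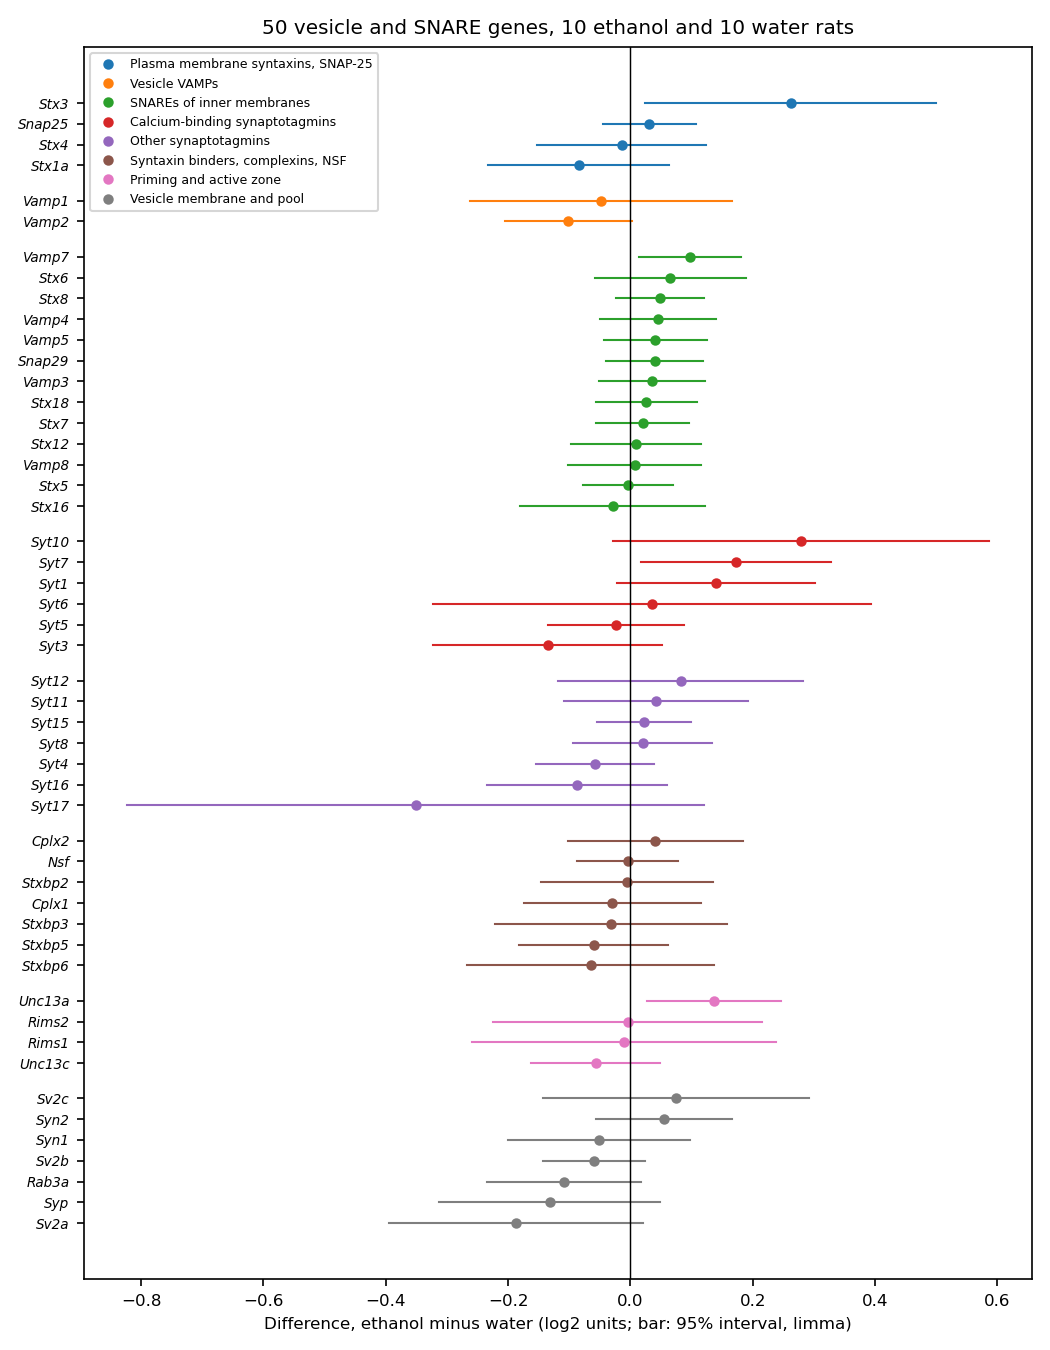
Difference between ethanol and water rats (horizontal axis, ethanol minus water, log2 units) with its 95% interval from limma for the 50 members above the filter, 10 rats a group, grouped by role. The intervals of Stx3, Vamp7, Syt7 and Unc13a lie to the right of 0 before adjustment, and 0 of the 50 passed after it.

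The arrays had near equal medians (7.93 to 7.98), and 3 water arrays, 12, 17 and 20, correlated less with the others than the rest did. Markers of cell types varied between rats along with some members. No marker passed the test, and 10% of all genes had an unadjusted p under 0.05. All 20 medium spiny neuron markers were higher in ethanol rats by a median of 0.25, and 2 of them had an unadjusted p under 0.05. Of 8 measured endothelial markers 6 were higher (median 0.078), 2 at an unadjusted p under 0.05. All 3 cholinergic markers were higher (median 0.028) and 7 of 10 astrocyte markers lower (median -0.041), 0 of either at an unadjusted p under 0.05. All 14 measured oligodendrocyte markers (median -0.17, 1 at an unadjusted p under 0.05) and all 3 measured septum and pallidum markers (median -0.32) were lower in ethanol rats, as were 13 of 15 pan-neuronal markers (median -0.11) and 10 of 11 microglial markers (median -0.083), 2 of each at an unadjusted p under 0.05. The mean of the medium spiny neuron markers in a rat ranged from 12.40 to 13.04 in ethanol rats and from 11.66 to 13.04 in water rats. Water animals 17, 19 and 20 were lowest, at 11.96, 12.18 and 11.66. The same 3 rats had the highest mean of 4 septum and pallidum markers (7.93, 7.58 and 8.21), 1 of which, Zic1, was below the filter. That mean ranged from 6.48 to 7.19 in ethanol rats and from 6.49 to 8.21 in water rats. Of the cortical excitatory markers, Slc17a7, Neurod6 and Tbr1 were below the filter. Several differences are therefore given with and without these 3 rats, and fits with the medium spiny neuron or oligodendrocyte mean as a covariate are given with the other alternatives.

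At the plasma membrane, 4 of the 5 syntaxins and SNAP-25 proteins were measured. Snap25, the plasma membrane SNARE that adds helices to every release bundle, ran from 14.47 over a median of 14.57 to 14.60 in ethanol rats, against 14.31, 14.54 and 14.63 in water rats. The groups overlapped, with water animal 12 lowest. The difference was 0.031 (95% interval -0.045 to 0.107, adjusted p = 0.731), and it was 0.0074 without water animal 12 (adjusted p = 0.928). Stx1a, the syntaxin of fast release, had a lowest, median and highest value of 8.05, 8.25 and 8.57 in ethanol rats, against 8.12, 8.29 and 8.62 in water rats. Its difference was -0.084 ± 0.071 (SE, adjusted p = 0.623), and the groups overlapped over nearly their whole range.

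Stx3, a syntaxin of ribbon synapses that also serves exocytosis in dendrites, ranged from 7.71 to 8.11 with a median of 7.87 in ethanol rats, against 6.89 to 8.08 with a median of 7.69 in water rats. Every ethanol rat lay above the water mean, but that mean was drawn down by water animals 12 and 13, at 6.89 and 7.11, while the other water rats lay between 7.52 and 8.08. The difference was 0.26 ± 0.11 (SE, adjusted p = 0.386), a 1.20-fold ratio. Leaving out water animals 12 and 13 gave 0.11 (adjusted p = 0.517), and 0.36 was obtained without water animals 17, 19 and 20 (adjusted p = 0.252). Stx4, which acts in exocytosis outside the fast release path, differed by -0.014, and Stx11 was below the filter.

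The VAMPs of secretory vesicles are the vesicle's own contribution to the bundle. Vamp2, the main synaptobrevin of forebrain synapses, had values of 11.89, 12.01 and 12.18 (lowest, median, highest) in ethanol rats, against 12.01, 12.12 and 12.41 in water rats. Only 2 ethanol rats lay above the water mean, and the ranges overlapped. The difference was -0.10 ± 0.050 (SE, adjusted p = 0.419), and it was -0.046 with array weights (adjusted p = 0.774). Vamp1, its close relative, ran from 10.84 to 11.26 with a median of 11.002 in ethanol rats, against 10.77 to 11.71 with a median of 10.92 in water rats. Water animals 17 and 20 stood above every ethanol rat, at 11.51 and 11.71. The difference was -0.048 (adjusted p = 0.863), and without water animals 17, 19 and 20 it was 0.12 (adjusted p = 0.480).

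The SNAREs of inner membranes formed the largest group, with 13 of 14 measured. Of these, 11 were higher and 2 lower in ethanol rats by small amounts, with a median of 0.036 and none past the adjusted threshold. Vamp7, a SNARE of lysosomes and late endosomes that also acts in neurite outgrowth, had values of 11.20, 11.25 and 11.36 in ethanol rats, against 11.01, 11.14 and 11.36 in water rats (lowest, median, highest). Every ethanol rat was above the water mean, yet water animal 12, at 11.36, was as high as any ethanol rat. The difference was 0.098 ± 0.040 (SE, adjusted p = 0.364), which is a 1.07-fold ratio. Leaving out water animals 17, 19 and 20 gave 0.062 (adjusted p = 0.580).

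The remaining inner-membrane SNAREs lay between -0.029 for Stx16, a syntaxin of the trans-Golgi network, and 0.065 for Stx6, its partner there. The late endosomal syntaxins Stx8 and Stx7 differed by 0.049 and 0.020, and the recycling endosome syntaxin Stx12 by 0.0091. For the early secretory path, Stx18 of the endoplasmic reticulum differed by 0.026 and Stx5 of the Golgi by -0.0039. Vamp4, Vamp5, Vamp3, Vamp8 and Snap29 gave 0.045, 0.041, 0.036, 0.0074 and 0.040. All 13 had a larger SD in water rats, a pattern that most genes on the arrays shared, as given below.

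**Figure D2:**
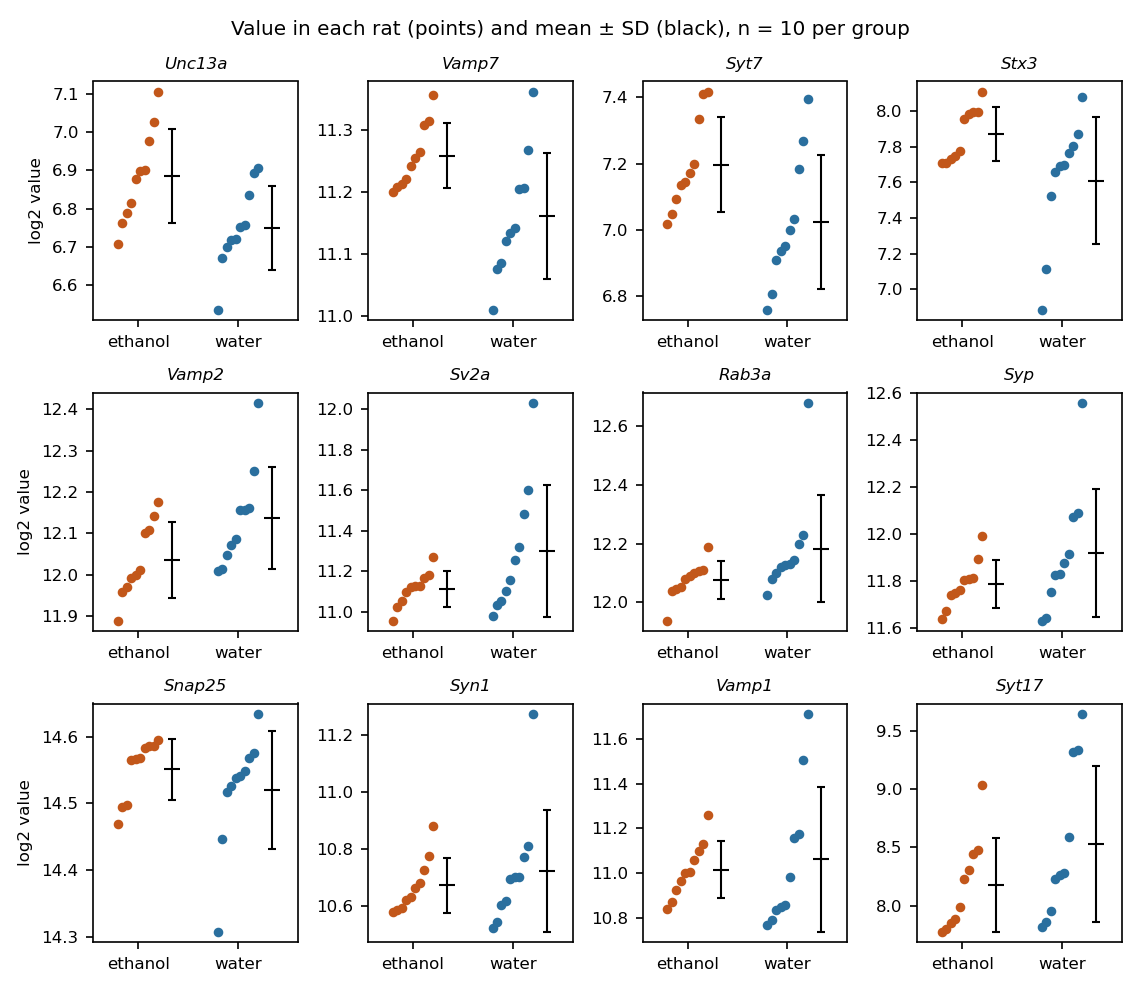
Log2 value of 12 members in each rat (points, ethanol on the left and water on the right) with the mean and SD of each group of 10 in black. The ranges overlap in every panel, and single water rats stand high for Sv2a, Rab3a, Syp and Syn1 and low for Stx3.

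Among the synaptotagmins that bind calcium, 6 of 8 were measured, with 4 higher and 2 lower in ethanol rats and a median of 0.087. Syt7, a high-affinity sensor linked to asynchronous release, had a lowest, median and highest value of 7.02, 7.16 and 7.41 in ethanol rats, against 6.76, 6.98 and 7.39 in water rats. Of the ethanol rats 9 were above the water mean, and water animal 20 was the highest of its group. The difference was 0.17 ± 0.075 (SE, adjusted p = 0.384), and 0.090 with the RNA quality value, the 3' minus 5' difference of control probe sets, as a covariate (adjusted p = 0.796).

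Syt10, which in mouse olfactory bulb neurons controls the secretion of insulin-like growth factor, ranged from 7.91 to 8.93 with a median of 8.44 in ethanol rats, against 7.46 to 8.89 with a median of 8.25 in water rats. Its difference of 0.28 ± 0.15 (SE, adjusted p = 0.452) was the largest positive one among the members. The lowest value belonged to water animal 20, and without water animals 17, 19 and 20 the difference was 0.16 (adjusted p = 0.710). Syt1, the sensor of fast release, had values of 7.29, 7.53 and 7.79 in ethanol rats, against 7.17, 7.36 and 7.69 in water rats. The difference was 0.14 ± 0.078 (SE, adjusted p = 0.468), with 8 ethanol rats above the water mean, and 0.0095 with that RNA quality covariate (adjusted p = 0.976).

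Syt3, a synaptotagmin of the plasma membrane, ran from 8.50 to 8.90 with a median of 8.68 in ethanol rats, against 8.55 to 9.48 with a median of 8.73 in water rats. Water animal 20 set the upper end. The difference was -0.14 ± 0.090 (SE, adjusted p = 0.536), and -0.0033 without water animals 17, 19 and 20 (adjusted p = 0.988). Syt5 differed by -0.024 and Syt6 by 0.036. For Syt6 water animal 20 was again apart, at 7.84, and the next lowest rats, ethanol animals 8 and 7, were both at 8.68.

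Of the other synaptotagmins, several of which lack residues that hold calcium, 7 of 8 were measured, 4 higher and 3 lower. Syt17, a peripheral membrane member of the family, had the widest spread of all members, with values of 7.78, 8.11 and 9.03 in ethanol rats, against 7.81, 8.27 and 9.64 in water rats. The 3 highest rats were water animals 17, 19 and 20, at 9.32, 9.34 and 9.64, followed by ethanol animal 3 at 9.03. The difference of -0.35 ± 0.23 (SE, adjusted p = 0.525) was the most negative among the members, and it was 0.037 without those 3 water rats (adjusted p = 0.952). Its probe set name marks probes that may match more than 1 transcript.

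Syt12 and Syt4 were low in water animal 20, where Syt17 was high. Syt12, a vesicle protein phosphorylated by protein kinase A, reached 8.58 there, the lowest of the 20 rats, and differed by 0.082 between the groups. Syt4, which neurons induce with activity, reached 12.53 in that rat and differed by -0.058. Syt16, Syt11, Syt15 and Syt8 differed by -0.087, 0.042, 0.022 and 0.020.

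Complexins, syntaxin binding proteins and NSF act on the bundle itself. By brightest probe set, 6 of the 7 measured were lower in ethanol rats by at most 0.065. Cplx1 ran from 13.22 to 13.67 with a median of 13.48 in ethanol rats, against 13.35 to 13.86 with a median of 13.45 in water rats, a difference of -0.029 (adjusted p = 0.878). Cplx2 ran from 12.73 to 13.28 with a median of 13.11 in ethanol rats, against 12.77 to 13.27 with a median of 13.06 in water rats, a difference of 0.041 (adjusted p = 0.823). The Cplx2 ranges nearly coincided, and those of Cplx1 overlapped. Nsf, the disassembly ATPase, ran from 13.01 to 13.28 with a median of 13.21 in ethanol rats, against 13.08 to 13.36 with a median of 13.19 in water rats. Its difference was -0.0045 (95% interval -0.086 to 0.078, adjusted p = 0.973) by the brightest probe set. Another Nsf probe set differed by 0.20, as given below.

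The syntaxin binding genes lay close to 0 too. Stxbp5, or tomosyn, which holds syntaxin and SNAP-25 away from VAMPs, differed by -0.060. Its sign is open, since a probe set of nearly equal brightness (mean 10.271, against 10.275) differed by 0.074. Stxbp6, or amisyn, which also binds syntaxin, differed by -0.065, with water animal 17 highest at 11.90 and water animal 18 lowest at 11.02. Stxbp3 and Stxbp2, which bind syntaxins of the plasma membrane, differed by -0.032 and -0.0053. Ethanol animal 8 had the highest Stxbp3 value of all rats, 10.83.

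At the active zone, Unc13a had the smallest p of all members by brightest probe set. A further Nsf probe set, given below, had a smaller one. Unc13a encodes Munc13-1, which opens syntaxin to prime vesicles. Its values were 6.71, 6.89 and 7.10 (lowest, median, highest) in ethanol rats, against 6.54, 6.74 and 6.91 in water rats. Of the ethanol rats 9 lay above the water mean, but the ranges overlapped from 6.71 to 6.91. The difference was 0.14 ± 0.053 (SE, 95% interval 0.027 to 0.246), a 1.10-fold ratio, with an unadjusted p of 0.0169 and an adjusted p of 0.339. With water animals 17, 19 and 20 left out the value was 0.15 (adjusted p = 0.371). The probe set was near the filter, where RMA shrinks differences.

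Rims1, a scaffold that ties vesicles to calcium channels, ranged from 6.88 to 7.61 with a median of 7.34 in ethanol rats, against 6.54 to 7.79 with a median of 7.30 in water rats. Water animals 18 and 20 held both ends of the range, and the difference was -0.011 (adjusted p = 0.979). Rims2 differed by -0.0046 and Unc13c by -0.056. Unc13b, Unc13d and Rims3 were below the filter.

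The proteins of the vesicle membrane and vesicle pool showed the widest gap in spread between the groups. Their SD was larger in water rats for 5 of the 7 measured, with a median ratio of 2.22 (water over ethanol). Sv2a, the vesicle glycoprotein that binds the antiepileptic drug levetiracetam, ran from 10.96 to 11.27 with a median of 11.12 in ethanol rats, against 10.98 to 12.03 with a median of 11.21 in water rats. No ethanol rat lay above the water mean, which rested on water animals 17, 19 and 20 at 11.60, 11.48 and 12.03. The difference was -0.19 ± 0.10 (SE, adjusted p = 0.452), and -0.015 without those 3 rats (adjusted p = 0.940).

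Rab3a, the small GTPase of the vesicle surface, had values of 11.94, 12.08 and 12.19 in ethanol rats, against 12.02, 12.13 and 12.68 in water rats. Water animal 20 stood alone, since the next highest rat was at 12.23. The difference was -0.11 ± 0.061 (SE, adjusted p = 0.469), and -0.053 without water animal 20 (adjusted p = 0.607). Syp, or synaptophysin, an abundant vesicle membrane protein that binds synaptobrevin, ran from 11.64 to 11.99 with a median of 11.78 in ethanol rats, against 11.63 to 12.56 with a median of 11.85 in water rats. It too was highest in water animal 20, followed by water animals 17 and 19 at 12.09 and 12.07. Its difference was -0.13 ± 0.087 (SE, adjusted p = 0.530), and 0.0049 without those 3 rats (adjusted p = 0.981).

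Syn1, or synapsin I, which tethers vesicles of the reserve pool, ran from 10.58 to 10.88 with a median of 10.65 in ethanol rats, against 10.52 to 11.27 with a median of 10.70 in water rats. Water animal 20 was again the highest, and the difference of -0.051 (adjusted p = 0.781) was 0.010 without it (adjusted p = 0.957). Syn2, its relative, differed in pattern, with values of 10.74, 10.92 and 11.16 in ethanol rats, against 10.72, 10.88 and 10.99 in water rats. Here the wider group was ethanol, and the difference was 0.055 (adjusted p = 0.672). Sv2b and Sv2c, the second of which is rich in the basal ganglia, differed by -0.059 and 0.074. Both were lowest in ethanol animal 8 within the ethanol group and in water animal 20 within the water group.

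Water animal 20 was the highest rat for 13 members. For 4 chosen from them, Vamp1, Rab3a, Syp and Syn1, the 250 bases before the RefSeq start (GRCr8) are shown. Capitals mark the cAMP response element TGACGTCA and the GC box GGGCGG, searched on both strands, where CCGCCC is the GC box of the other strand. The windows are chr4:159698644-159698893 (plus strand) for Vamp1, chr16:18722274-18722523 (minus strand) for Rab3a, chrX:17536450-17536699 (minus strand) for Syp and chrX:3725495-3725744 (plus strand) for Syn1.
Vamp1: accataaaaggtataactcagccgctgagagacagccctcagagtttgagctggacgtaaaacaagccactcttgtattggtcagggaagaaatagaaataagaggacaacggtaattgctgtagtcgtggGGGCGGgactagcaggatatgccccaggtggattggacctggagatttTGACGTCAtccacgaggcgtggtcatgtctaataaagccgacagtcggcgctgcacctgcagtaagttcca
Rab3a: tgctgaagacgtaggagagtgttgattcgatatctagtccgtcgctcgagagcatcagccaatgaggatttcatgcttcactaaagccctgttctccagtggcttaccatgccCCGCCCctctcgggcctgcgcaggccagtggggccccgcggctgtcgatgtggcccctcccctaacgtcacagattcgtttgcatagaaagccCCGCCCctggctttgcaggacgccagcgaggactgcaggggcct
Syp: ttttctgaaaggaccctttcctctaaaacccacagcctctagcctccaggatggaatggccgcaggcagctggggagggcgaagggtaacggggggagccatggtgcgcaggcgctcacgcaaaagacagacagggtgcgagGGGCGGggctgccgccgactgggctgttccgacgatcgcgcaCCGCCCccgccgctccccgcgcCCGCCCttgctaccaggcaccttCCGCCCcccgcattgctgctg
Syn1: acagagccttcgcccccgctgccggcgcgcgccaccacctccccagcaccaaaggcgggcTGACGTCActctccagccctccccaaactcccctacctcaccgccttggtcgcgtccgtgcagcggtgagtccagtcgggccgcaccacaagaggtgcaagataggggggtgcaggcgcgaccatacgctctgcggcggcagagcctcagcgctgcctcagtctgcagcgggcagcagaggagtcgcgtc
Vamp1 and Syn1 each held 1 cAMP response element, and they were the only members with one, 2 of 49 with a window (4.08%), against 1.79% of 27457 genes. A GC box stood in Vamp1 (1), Rab3a (2) and Syp (4). Over the members 33 of 49 held a GC box (67.3%), against 33.5% of those 27457 genes. The members' windows also had more G and C, with a median of 61.6% against 52%. TATAAA, on either strand, was in 2 members (4.08%), Stxbp3 and Syt16, against 14.1% of the 27457. These 27457 are all genes with a RefSeq window, on the arrays or not. The shares among the genes tested were not computed, so the contrasts may lie in the kind of gene compared. A match is a run of letters and says nothing of a factor bound there. A link between these letters and the values in water animal 20 was not tested.

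**Figure D3:**
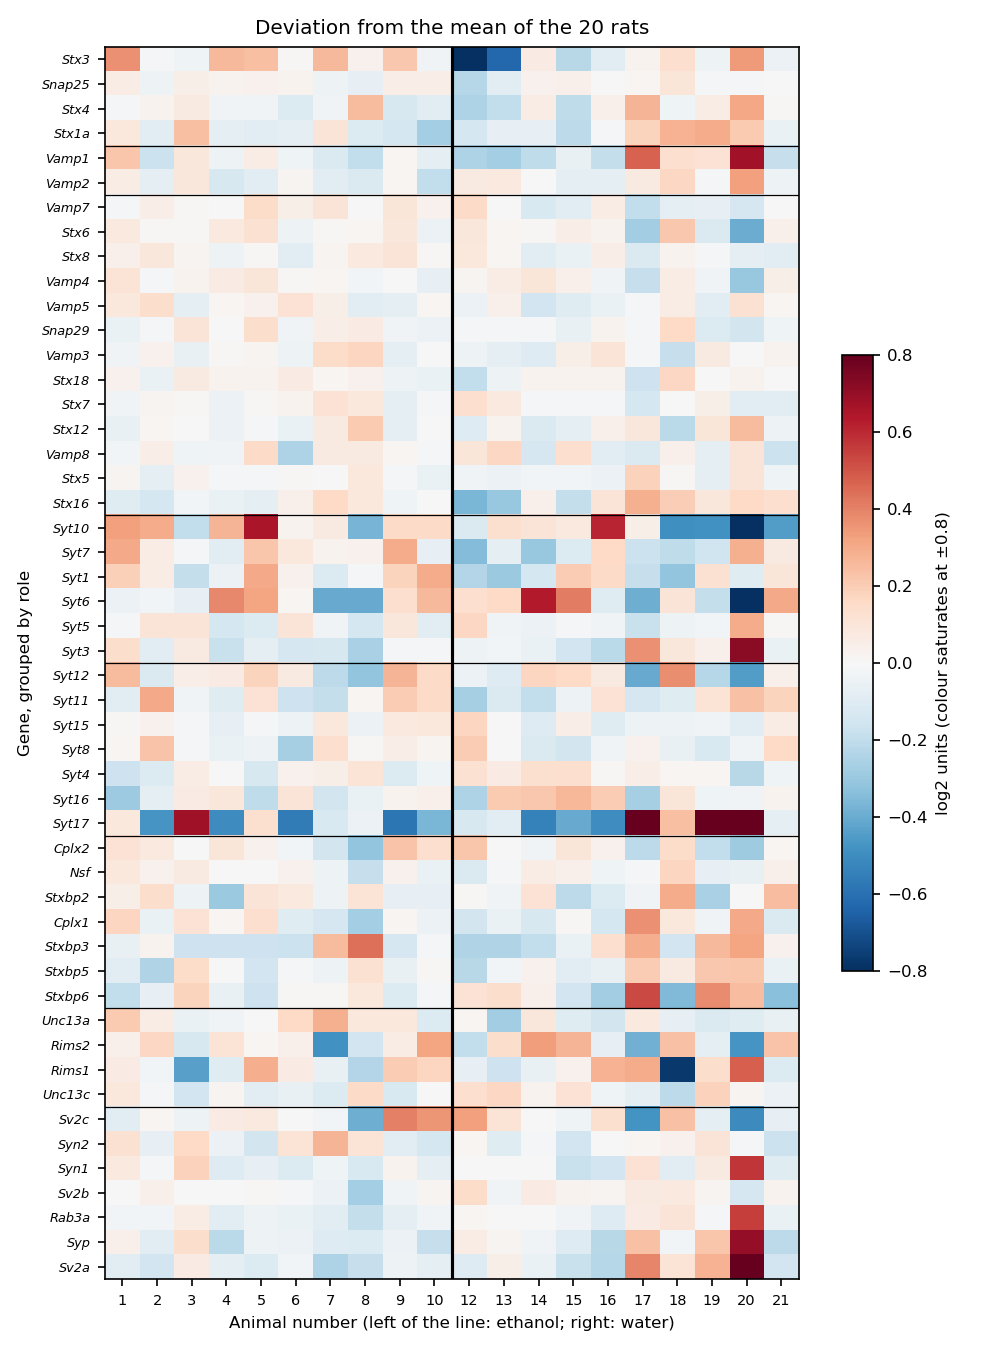
Deviation of each member from its mean over the 20 rats (colour, log2 units, saturating at ±0.8), with genes in rows by role and rats in columns, ethanol left of the line. Water animal 20 is the most coloured column, red for Vamp1, Syt3, Syn1, Rab3a, Syp and Sv2a and blue for Syt10, Syt6 and Syt12.

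Water animal 20 was the highest of the 20 rats for 13 members and the lowest for 8, so it held an extreme for 21 of 50 (42%), against 33.0% of all genes. Within its group it also had the lowest medium spiny neuron mean, 11.66, and the highest pan-neuronal mean, 12.72. The pan-neuronal mean ranged from 12.03 to 12.32 in ethanol rats and from 11.98 to 12.72 in water rats. Slc17a6, a glutamate transporter of subcortical neurons, ran from 6.72 to 8.30 in ethanol rats, against 6.33 to 9.98 in water rats. The part of the pan-neuronal markers and of Slc17a6 in the vesicle gene values was not tested.

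Other rats were extreme less often. Water animal 18 held an extreme for 13 members (26%, against 16.5% of all genes), water animal 12 for 11 (22%, against 26.5%) and water animal 17 for 8 (16%, against 19.98%). Among ethanol rats, animal 8 held an extreme for 8 members (16%, against 6.77%), 6 of them as the lowest. That rat had the highest oligodendrocyte marker mean of its group, 11.57, in a range of 10.70 to 11.57 in ethanol rats and 10.70 to 11.58 in water rats, and the lowest medium spiny neuron mean of its group. Ethanol animal 3 held no extreme among the members, against 2.64% of all genes.

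The spread between animals was larger in water rats for 46 of the 50 members (92%), against 81.2% of all genes, and the median SD ratio was 1.41 for the members and 1.46 for all genes. Unc13a, Sv2b, Syn2 and Syt8 were the 4 with a larger SD in ethanol rats. Without water animal 20 the count was 38 (76%, against 76.1% of all genes). Without water animals 17, 19 and 20 it was 28 (56%, against 62.2% of all genes), with a median ratio of 1.06 for the members and 1.16 for all genes. The larger spread in water rats was thus shared by most genes on these arrays. The rats left out were chosen because they stood apart, so a smaller water SD without them is no test.

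**Figure D4:**
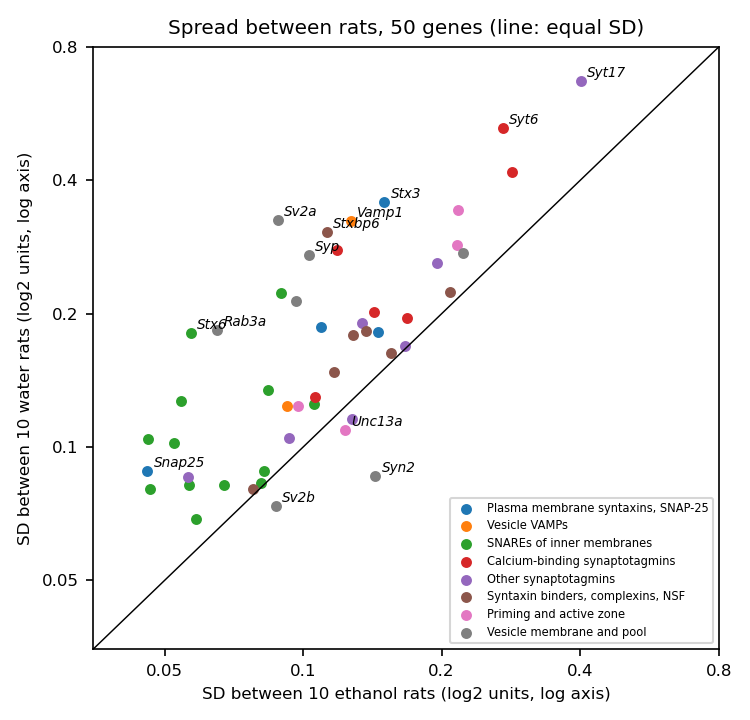
SD between the 10 water rats (vertical, log2 units, log axis) against SD between the 10 ethanol rats (horizontal, log axis) for the 50 members, coloured by role, with a line of equal SD. The points of 46 members lie above the line, and Unc13a, Sv2b, Syn2 and Syt8 lie below it.

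Further probe sets of the same genes gave a second reading. Of 91 member probe sets 70 were above the filter, 20 of them a second or further probe set, and 0 passed the adjusted threshold, against 0.0966% of all probe sets. At an unadjusted p under 0.05 there were 4 of the 20, all higher in ethanol rats, beside 12.1% of all probe sets. In 11 of 16 genes with more than 1 probe set above the filter, the differences disagreed in sign. Probe sets of a gene can lie at different distances from the 3' end and read different transcript ends.

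Nsf gave the widest disagreement relative to its error. A further probe set ran from 11.90 to 12.32 in ethanol rats, against 11.62 to 12.06 in water rats. It differed by 0.20 (95% interval 0.082 to 0.317, unadjusted p = 0.0019 by limma, adjusted p = 0.244), while the brightest one differed by -0.0045. For Syn2 the dimmest measured probe set differed by 0.32 (adjusted p = 0.385), beside 0.055 for the brightest. For Vamp1 the second probe set differed by 0.22 (adjusted p = 0.409), beside -0.048, and for Stxbp5 the dimmest measured probe set by 0.22 (adjusted p = 0.379), beside -0.060. The difference between probe sets of a gene was not tested.

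Of the 6 genes whose brightest probe set was highest of all in water animal 20 and that had further ones above the filter, 4 had a further probe set that was also highest there, and those of Stx12 and Stxbp5 were highest in other rats. Vamp1 repeated it in 1 of 2 further probe sets. For Rab3a the other probe set ran from 10.17 to 10.37 in ethanol rats, against 10.03 to 11.28 in water rats, with water animal 20 highest. For Syn1 the other probe set ran from 8.90 to 9.20 in ethanol rats, against 8.83 to 9.91 in water rats, again with water animal 20 highest. Syt3 did the same, with 7.25 to 7.65 in ethanol rats, against 7.07 to 8.003 in water rats. The probe sets of a gene are read from the same array, so they are not independent animals.

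**Figure D5:**
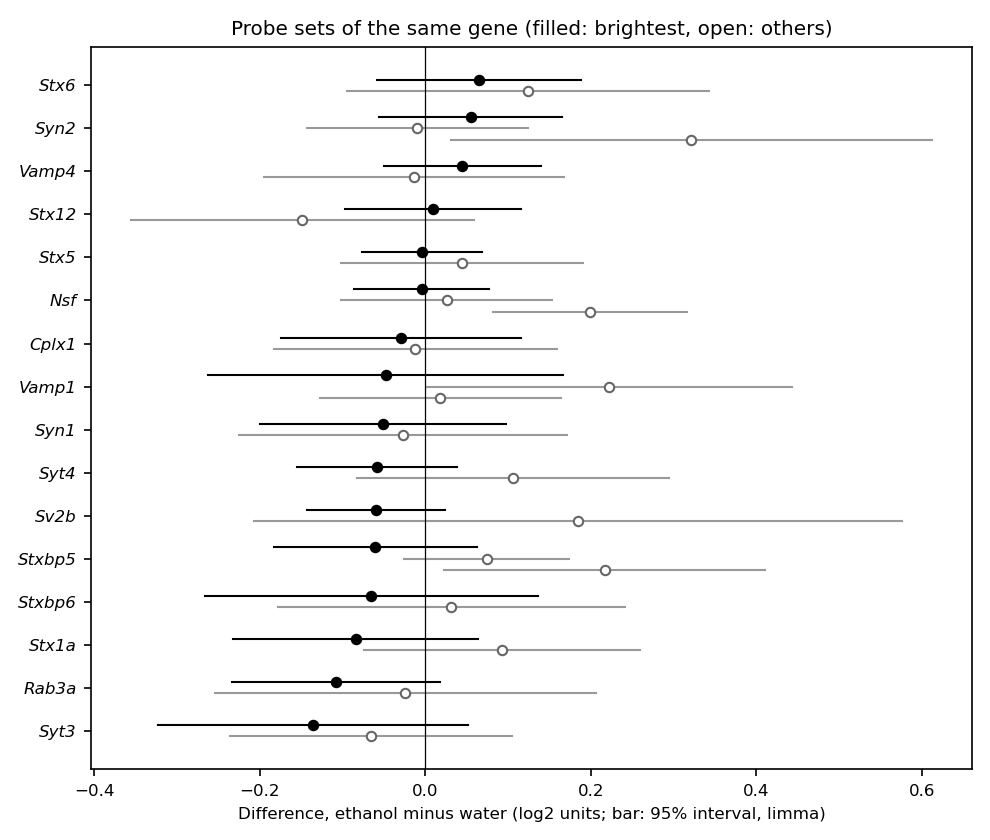
Difference between ethanol and water rats (ethanol minus water, log2 units, with 95% intervals from limma) for the 16 members with more than 1 probe set above the filter; filled points are the brightest probe set of a gene and open points the others. Open points lie to the right of the filled one for Nsf, Vamp1 and Stxbp5 and to the left for Stx12 and Vamp4. Those of Syn2 lie on both sides.

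Other genes of vesicle release and recycling, listed by role, gave the same count. Of 78 measured genes in 6 lists, 0 passed the adjusted threshold (against 0.0931% of all genes), with 35 higher and 43 lower in ethanol rats. At an unadjusted p under 0.05, 3 of the 78 were higher and 2 lower, beside 5.24% and 4.77% of all genes. The gene of smallest p in each list follows. Napa, or alpha-SNAP, the adaptor through which NSF grips the SNARE bundle, differed by 0.11 (adjusted p = 0.359). Rab3d, a Rab3a relative of secretory granules, differed by 0.28 (adjusted p = 0.316), and Sytl2, a Rab27 effector, by 0.21 (adjusted p = 0.387). Slc18a1, a vesicular monoamine transporter, differed by 0.17 (adjusted p = 0.413), and the vesicle membrane protein Scamp1 by 0.042 (adjusted p = 0.581). Itsn2, a scaffold of endocytosis, was the 1 of these 6 with a negative difference, -0.20 (adjusted p = 0.287).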

How the data were processed

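RNA of the accumbens shell of 10 ethanol and 10 water P rats was measured on 1-colour Affymetrix arrays. Per the labels' protocols, total RNA was labelled from the 3' end, which makes values depend on RNA integrity. Per the submitters' processing notes, the deposited log2 values were made with RMA, which shrinks differences of dim probe sets and hides a shift shared by most genes. Not given in the sources used here are the RMA software, its version and the chip definition. All sample columns were used (0 were not), and animal number 11 was not analysed here. Arrays carry no read depth, so their number limits the precision.

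The platform's gene table gave 1 gene for 20826 of 31099 probe sets, several for 436 and none for 9780, and 57 were controls. All 60 members matched RefSeq GRCr8 by gene identifier. Controls and the 33.3% of other probe sets with the lowest mean were left out. Groups were compared with limma (3.58.1, R 4.3.3; lmFit and eBayes, two-sided, no covariate) on 20695 probe sets with Benjamini-Hochberg adjustment, threshold 0.05. The procedure was tested on simulated data, drawn as independent normal values with the same SD in both groups. That setting lacks the larger spread in water rats and the arrays that stood apart, so it does not cover them. A marker list's level in a rat is the mean of all its genes with a probe set, those below the filter included. An array was called less correlated from its median correlation with the others.

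Members given in full are the 6 of smallest p in each direction and the core release genes Snap25, Stx1a, Vamp1, Vamp2, Syt1, Cplx1, Cplx2, Unc13a, Rims1, Nsf, Syn1, Syn2, Sv2a, Syp and Rab3a. Partner genes are named by the smallest p of their list. Members, lists and left-out rats were chosen with earlier results of these data known. Sytl genes were kept out of the members, with the other reading as an alternative. Further alternatives were other filters, normalizations, variance models, array weights, covariates, left-out rats and the mean over probe sets. Each animal has a number of its own, and nothing in the labels says that animals share a litter or batch. Promoter windows are RefSeq's, and 11 members had none in that table.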

Additional observations from a re-analysis of the deposited data

Results flagged for a closer look

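Single rats stood far from the rest of their group for 11 of 100 sets of 10 values (each measured member in each group), where the gap to the nearest rat divided by the group's range passed Dixon's 95% critical value. Chance gives about 1 such set in 20 where sets are independent. These sets share the same 20 arrays, so they are not, and the share flagged over all genes was not computed. Of the 11, 4 were in ethanol animal 8 and 4 in water animal 20. By another measure, being highest or lowest of all 20 rats, those 2 rats held an extreme for 6.77% and 33.0% of all genes. These shares are no background for the flags, which were set within a group.

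In ethanol animal 8, Sv2b was low at 12.88 with the next rat at 13.11 (ratio 0.732), and Nsf was low at 13.01 with the next at 13.14 (ratio 0.483). In the same rat Stx4 was high at 10.16 with the next at 9.98 (ratio 0.4825), and Stx12 was high at 11.64 with the next at 11.51 (ratio 0.475). Ethanol animal 6 was low for Vamp8 at 8.57 with the next at 8.78 (ratio 0.529), and ethanol animal 4 was low for Stxbp2 at 6.71 with the next at 6.94 (ratio 0.527).

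In water animal 20, 3 vesicle genes were high. These were Rab3a at 12.68 with the next rat at 12.23 (ratio 0.685), Syn1 at 11.27 with the next at 10.81 (ratio 0.615) and Syp at 12.56 with the next at 12.09 (ratio 0.507). Syt4 was low there at 12.53 with the next at 12.71 (ratio 0.527). Water animal 18 was low for Rims1 at 6.54 with the next at 7.15 (ratio 0.488).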

How the results depend on the processing

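No member and no partner gene passed the adjusted threshold under any alternative, and the smallest adjusted p of a member given in full was 0.205 (Vamp7 without water animal 12). The count of members at an unadjusted p under 0.05 was 4 as reported. With the stricter filter on dim probe sets it was 1 of 39 members tested (2.56%, against 10.4% of all genes). Unc13a, Syt7 and Stx3 lay below that filter and were left out. With a covariate for the 3' minus 5' difference of control probe sets it was 1 of 50 (2%, against 6.05% of all genes). Of all genes, 2 then passed the adjusted threshold, against 10 as reported, and the cause was not tested. The 3' minus 5' value ran from 1.03 to 1.35 in ethanol rats, against 0.999 to 1.46 in water rats. Water animals 12, 13, 14, 17 and 18 lay above every ethanol rat, and water animal 16 lay below. With each animal left out the count of members ran from 2 (without water animal 12) to 8 (without water animal 16). These were 4% and 16% of members, against 10.6% and 11.6% of all genes. The count was 7 without water animal 15 (14%, against 11.5%). It was 5 with Sytl genes counted. The median difference of the members stayed between -0.014 and 0.021. Of the 21 members given in full, 9 kept their sign under all of up to 14 alternatives (Unc13a, Vamp7, Syt7, Stx3, Syt10, Syt1, Vamp2, Rab3a and Syn2), and 16 with each animal left out. With an animal left out Vamp1 ran from -0.081 to 0.024, Cplx1 from -0.050 to 0.0094, Rims1 from -0.097 to 0.042, Nsf from -0.018 to 0.016 and Syn1 from -0.074 to 0.010.

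The signs that turned, with the cause not tested, were these. Without water animals 17, 19 and 20 the differences were 0.037 for Syt17, 0.0049 for Syp, 0.12 for Vamp1, 0.055 for Cplx1, -0.049 for Cplx2, 0.12 for Rims1 and 0.047 for Syn1. Without water animals 12, 13, 17, 19 and 20 they were 0.0052 for Sv2a, 0.079 for Syt17, 0.050 for Syp, 0.0096 for Syt3, -0.020 for Snap25, 0.076 for Vamp1, 0.044 for Cplx1, -0.032 for Cplx2, 0.12 for Rims1 and 0.076 for Syn1. Without water animals 12 and 13 Snap25 was at -0.0048. Without water animals 12, 17 and 20 Vamp1, Cplx1, Rims1 and Syn1 were at 0.069, 0.038, 0.088 and 0.037, and with array weights at 0.051, 0.029, 0.017 and 0.029. With the medium spiny neuron mean as a covariate Vamp1, Cplx1, Cplx2, Rims1 and Syn1 were at 0.061, 0.013, -0.050, 0.076 and 0.033, and with the oligodendrocyte mean Cplx2 and Rims1 were at -0.024 and 0.018. With that covariate for RNA quality Cplx1 and Nsf were at 0.024 and 0.027, and with the mean over a gene's probe sets Stx1a, Vamp1 and Nsf were at 0.0042, 0.064 and 0.074. No paired analysis was possible because the groups share no animal number. Signal over background is not in the deposited values, so dim members such as Unc13a and Syt8 rest on values near the filter.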
